A study of Mus musculus with 15 samples.

Results

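Metallothioneins are small cysteine-rich proteins that bind zinc and copper, and together with zinc transporters they set how much free zinc a cell holds. The 8 genes described here were chosen by name: the metallothionein genes Mt1 and Mt2, the zinc sensor Mtf1, the exporters Slc30a1, Slc30a5 and Slc30a7 (ZnT1, ZnT5 and ZnT7) and the importers Slc39a1 and Slc39a7 (ZIP1 and ZIP7). They are 8 of the 22339 genes in the deposited table. Mt2 was selected on its measured TPM, which is higher with glucose uptake, with loss of B220 and in bone marrow, so those differences of Mt2 are given as a description with no test. Mt1 and the other genes were placed beside it with earlier results of these data known.

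The study profiled plasma cells, which make antibody, from untreated and unimmunised male C57Bl6/N mice of 8 to 12 weeks. All cells were double sorted as CD138-high and negative for Ly6g and CD11c, about 30000 per library, and no group carried a transgene or other allele according to the labels. In spleen, 4 groups cross B220, a B cell form of CD45, with uptake of the fluorescent glucose analogue 2NBDG, giving B220+2NBDG- with its partner B220+2NBDG+ and B220-2NBDG- with its partner B220-2NBDG+. Bone marrow gave the group BMPC, sorted as B220- and 2NBDG+, and each of the 5 groups had 3 biological replicates. Whether a replicate pooled several animals is not given in the sources used here.

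As background, zinc that enters the cytosol binds MTF1, a zinc finger factor that moves to the nucleus and switches on metallothionein genes and Slc30a1 through short metal response elements. ZIP proteins bring zinc into the cytosol and ZnT proteins move it out, either across the plasma membrane (ZnT1) or into the secretory pathway (ZnT5 and ZnT7), where ZIP7 releases it again. Plasma cells are filled with such secretory membranes. Metallothionein genes also respond to glucocorticoids and to oxidative stress.

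Mt1 and Mt2 are neighbours on chromosome 8 (GENCODE M21, GRCm38). Mt2 (ENSMUSG00000031762.7) lies at chr8:94172664-94173568 and Mt1 (ENSMUSG00000031765.8) at chr8:94179082-94180327, both on the plus strand with 5513 bases between them. Their promoters are printed because both genes followed one order over the groups, and that of Slc30a1 because it is a textbook MTF1 target that stayed at the lowest level of the 8 genes. Each RefSeq window (GRCm38.p6, plus strand, 5′ to 3′) runs from 250 bases before to 50 bases after the RefSeq start, and capitals mark matches to the metal response element core, TGCACNC or TGCGCNC, on either strand. Their places are chr8:94178839-94179138 for Mt1, chr8:94172368-94172667 for Mt2 and chr1:191906531-191906830 for Slc30a1.
Mt1: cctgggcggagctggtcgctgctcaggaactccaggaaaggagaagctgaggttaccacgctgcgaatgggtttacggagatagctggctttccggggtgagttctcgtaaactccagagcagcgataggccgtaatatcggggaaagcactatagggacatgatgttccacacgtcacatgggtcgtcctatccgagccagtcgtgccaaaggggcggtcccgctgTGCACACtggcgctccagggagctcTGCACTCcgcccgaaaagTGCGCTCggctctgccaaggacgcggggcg
Mt2: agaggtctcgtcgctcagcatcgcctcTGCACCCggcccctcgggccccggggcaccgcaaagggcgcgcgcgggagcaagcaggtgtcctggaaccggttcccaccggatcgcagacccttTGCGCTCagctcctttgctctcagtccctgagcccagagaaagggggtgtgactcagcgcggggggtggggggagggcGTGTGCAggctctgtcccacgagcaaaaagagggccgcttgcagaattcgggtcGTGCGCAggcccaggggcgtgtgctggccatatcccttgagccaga
Slc30a1: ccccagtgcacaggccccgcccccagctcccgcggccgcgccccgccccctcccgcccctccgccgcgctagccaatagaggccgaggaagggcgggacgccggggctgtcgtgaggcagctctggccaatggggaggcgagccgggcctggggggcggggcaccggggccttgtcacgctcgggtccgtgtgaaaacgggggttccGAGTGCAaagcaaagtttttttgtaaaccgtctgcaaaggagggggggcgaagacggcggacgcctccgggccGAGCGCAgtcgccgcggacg

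The Mt2 window held 4 metal response cores, the Mt1 window 3 and the Slc30a1 window 2. Relative to the start they began at positions -223, -128, -50 and 5 in Mt2 and at -23, 3 and 21 in Mt1. At least 1 core was present in 25.7% of 32851 RefSeq promoter windows of this length, at least 2 in 7.11%, at least 3 in 1.97% and at least 4 in 0.52%. The antioxidant response element core, TGACNNNGC, matched 1 time each in Mt2, Slc30a1, Slc30a5 and Slc39a1, and in 12.39% of all windows. Slc30a5 held 1 metal response core, and neither motif was found in the windows of Mtf1, Slc30a7 and Slc39a7. The RefSeq start of Mt2 lies 46 bases before its GENCODE start. For Mtf1 the GENCODE start lies at -445 from the RefSeq start, outside the window searched. No match overlapped another, and a match describes letters only.

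**Figure D1:**
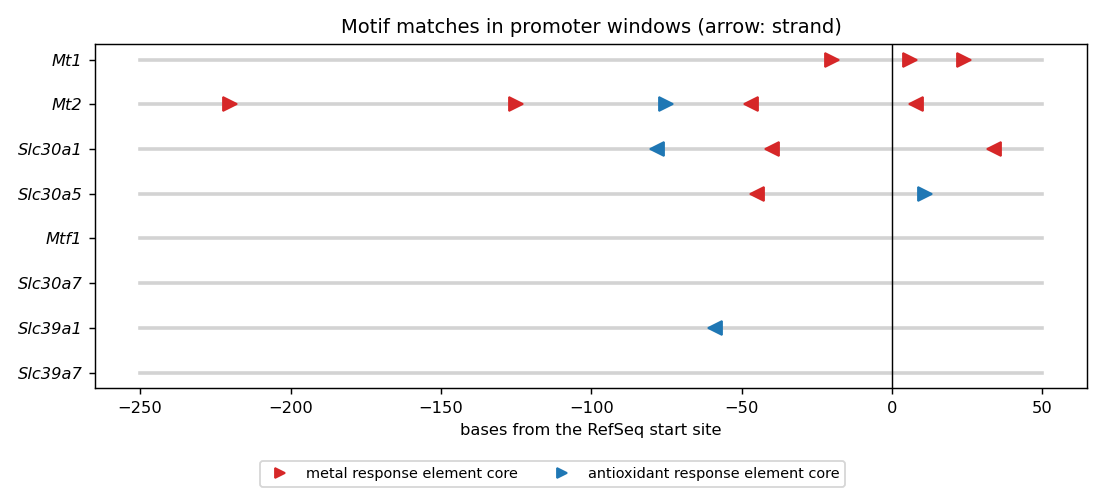
Positions of motif matches in the promoter windows of the 8 genes, in bases from the RefSeq start site (x axis); red triangles are metal response cores, blue triangles antioxidant response cores, and the triangle points right for the plus strand and left for the minus strand relative to the gene. Mt2 holds 4 red triangles, Mt1 3 and Slc30a1 2, while 3 genes hold no match.

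The deposited values were TPM, transcripts per 1000000, which are adjusted for transcript length. The libraries held an estimated 17302750 to 24857900 reads, of which 4406395 to 9917464 lay outside immunoglobulin genes. TPM below is, unless called deposited, relative to all genes outside the 262 immunoglobulin locus genes. Removing those multiplied the other values by 11.2 to 12.7 for B220+2NBDG-, by 18.2 to 19.3 for B220-2NBDG-, by 20.8 to 22.9 for B220+2NBDG+, by 26.9 to 29.3 for B220-2NBDG+ and by 19.6 to 27.3 for BMPC, so group differences depend on this choice. B220+2NBDG- replicate 3 stood apart from its replicates (Pearson r across genes of 0.946 and 0.939, against 0.965 to 0.976 for all other replicate pairs). All 6 plasma cell markers were detected in every group. Within the same libraries Sdc1, which encodes CD138, ranged over group means of 61.4 to 123 TPM.

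Metallothionein mRNA was lowest in spleen cells that kept B220 and took up no 2NBDG, and highest in bone marrow plasma cells. Mt2 stood at 24.6, 12.5 and 41.0 TPM in the 3 libraries of B220+2NBDG-, at 80.5, 59.6 and 78.9 for B220+2NBDG+, and at 100, 80.7 and 81.2 for B220-2NBDG-. The B220-2NBDG+ libraries held 225, 163 and 198 TPM and the BMPC libraries 485, 708 and 272. The libraries of each group lay wholly above those of the group before it in this order, although the lowest B220-2NBDG- library and the highest B220+2NBDG+ library were almost level. These middle groups did not differ beyond their spread, with means of 87.3 ± 11 and 73.0 ± 12 TPM (SD, n = 3). The remaining means were 26.0 ± 14, 195 ± 31 and 489 ± 218 TPM (SD, n = 3) for B220+2NBDG-, for B220-2NBDG+ and for BMPC. Mt2 was chosen for such rises, so the separation of its libraries is a description. Of all tested genes, 2.3% were likewise wholly higher with 2NBDG in both strata and 2.03% with loss of B220 in both. In bone marrow 4.62% were wholly higher.

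Mt1 followed the same course at a higher level. Its values were 136, 72.5 and 181 TPM for B220+2NBDG-, then 251, 204 and 282 for B220+2NBDG+, and 359, 228 and 306 for B220-2NBDG-. The B220-2NBDG+ libraries held 573, 410 and 687 TPM and the BMPC libraries 2038, 2179 and 872. The 2 middle groups overlapped for Mt1, while every B220+2NBDG- library lay below them and every B220-2NBDG+ and BMPC library above. In the bone marrow libraries Mt1 ranked 61, 53 and 158 among the 11246 tested genes by level, against 710 to 1602 in B220+2NBDG-. BMPC replicate 3 was the lowest bone marrow library for both genes.

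**Figure D2:**
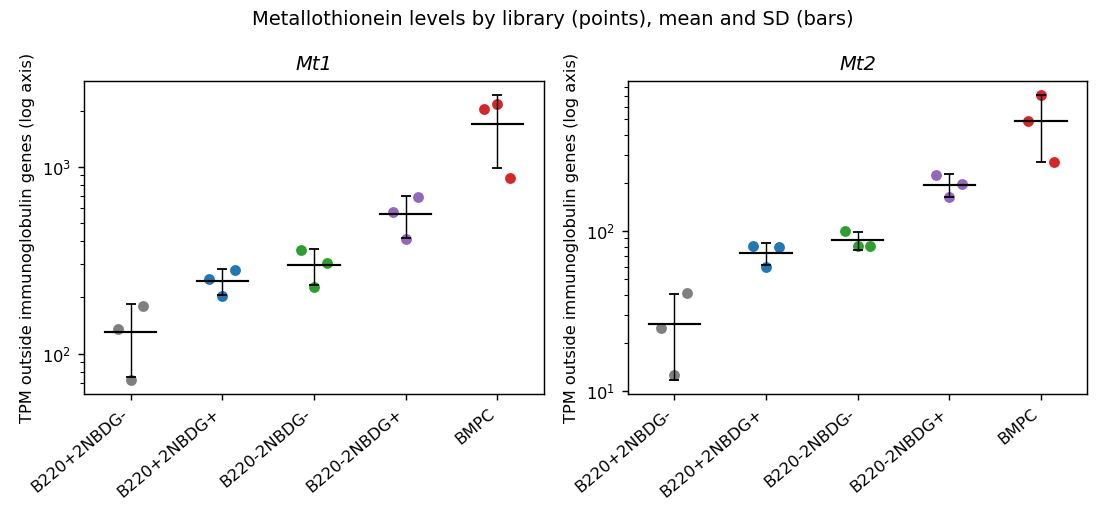
TPM outside immunoglobulin genes (y axis, log scale) of Mt1 and Mt2 in each library (points) of the 5 sorted groups (x axis), with group mean and SD (black). Both genes are lowest in B220+2NBDG- (12.5 to 41.0 TPM for Mt2), intermediate in the middle groups and highest in BMPC (272 to 708 TPM for Mt2).

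For Mt2 the ratio of group means was 2.8 for 2NBDG+ over 2NBDG- in B220+ cells and 2.24 in B220- cells. Loss of B220 went with a ratio of 3.35 in 2NBDG- cells and 2.68 in 2NBDG+ cells, and bone marrow stood 2.5 times above spleen B220-2NBDG+. On the log2(TPM + 1) scale, which understates the change of low genes, the differences averaged over strata were 1.37 ± 0.26 for 2NBDG and 1.63 ± 0.26 for B220 (SE). The single difference of BMPC from B220-2NBDG+ was 1.22 ± 0.37 (SE). The interaction, the difference between the 2NBDG effects in B220- and B220+ cells, was not used to choose Mt2. It was -0.44 ± 0.52 (SE; 95% interval -1.46 to 0.58) and did not pass the test (limma, Benjamini-Hochberg adjusted p = 0.976). In that comparison 3 of 11246 genes, 0.0267%, were called, and 623 genes had an unadjusted p under 0.05.

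Mt1 rose with 2NBDG uptake averaged over B220, by 0.95 ± 0.26 on the log2 scale (SE; limma, adjusted p = 0.0455). It rose with loss of B220 averaged over 2NBDG by 1.21 ± 0.26 (limma, adjusted p = 0.0105). Of the 6 tested genes other than Mt2, Mt1 was the 1 called in each of these averaged comparisons, beside 6.46% of all tested genes for 2NBDG (2.02% called higher) and 8.65% for B220 (2.8% called higher). Libraries of Mt1 did not overlap between the groups compared in either, with the same group higher in both strata, as for 2.3% and 2.03% of all tested genes. Mt1 and Mt2 had r = 0.98 over the 15 libraries, so the Mt1 calls are not independent of the choice of Mt2. Since these are bulk samples, fewer cells of a type and less RNA per cell cannot be told apart.

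Within single strata Mt1 kept its direction and did not pass the test. Its difference with 2NBDG was 1.0 ± 0.37 in B220+ cells (limma, adjusted p = 0.205) and 0.89 ± 0.37 in B220- cells (0.325), where 2.2% and 2.79% of all genes were called, and none of the 6 tested genes other than Mt2. The difference with loss of B220 was 1.26 ± 0.37 in 2NBDG- cells (limma, adjusted p = 0.0642) and 1.16 ± 0.37 in 2NBDG+ cells (0.189), beside 5.24% and 1.34% of all genes called. Without B220+2NBDG- replicate 3 or BMPC replicate 3 the former passed, at adjusted p = 0.0354 and 0.0293 (limma). The interaction of Mt1 was -0.11 ± 0.52 (limma, adjusted p = 0.998; 95% interval -1.12 to 0.91). These comparisons share groups and are not independent of each other.

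In bone marrow, Mt1 stood 3.05 times above spleen B220-2NBDG+ by the ratio of means. The difference of 1.53 ± 0.37 on the log2 scale missed the threshold (limma, adjusted p = 0.0528; 95% interval 0.81 to 2.24), and no tested gene of the group other than Mt2 was called beside 1.92% of all genes. It passed without BMPC replicate 3 (1.95, adjusted p = 0.00879), without B220+2NBDG- replicate 2 (1.53, 0.0302) and without B220+2NBDG- replicate 3 (1.53, 0.0355), all by limma. The other fits without 1 library missed the threshold, at adjusted p up to 0.194 (limma). So did the fit of only the groups compared (limma, adjusted p = 0.163). All 3 BMPC libraries lay above the 3 spleen libraries, as for 4.62% of all tested genes.

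The averaged 2NBDG call of Mt1 was close to the threshold. It was kept without B220+2NBDG- replicate 3, B220-2NBDG+ replicate 2 or any 1 BMPC library, and ended without any 1 of the 10 other spleen libraries, at adjusted p = 0.0531 to 0.112 (limma). The B220 call was kept without any 1 of the 15 libraries, at adjusted p = 0.00398 to 0.0339 (limma).

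The scale mattered for the spleen differences. As deposited, with immunoglobulin transcripts counted in the total, Mt1 stood at 10.8 ± 4.3 TPM for B220+2NBDG- and 11.3 ± 1.3 for B220+2NBDG+, at 15.8 ± 3.4 for B220-2NBDG- and 20 ± 4.3 for B220-2NBDG+, and at 79.2 ± 41 for BMPC (SD, n = 3). Deposited Mt2 stood at 2.15 ± 1.1, 3.35 ± 0.46, 4.64 ± 0.49, 7.07 ± 1.2 and 22.6 ± 12 TPM in the same order. On that scale Mt1 did not pass for 2NBDG (0.22, limma adjusted p = 0.471) or for B220 (0.66, 0.0533), and Mt2 differed by 0.52, 0.89 and, for bone marrow, 1.41. The order of the group means was the same on both scales for both genes. Adding 1 before the log shrinks differences more at the smaller deposited values. Differences and calls on the 2 scales, here and below, are therefore not equal measures.

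The share of the pair held by Mt2 does not depend on that scale. The ratio of Mt2 to Mt1 was 0.181, 0.172 and 0.227 in B220+2NBDG-, below every library of the other groups. It averaged 0.297 ± 0.020 for B220+2NBDG+, then 0.300 ± 0.048 for B220-2NBDG-, 0.360 ± 0.062 for B220-2NBDG+ and 0.292 ± 0.047 for BMPC (SD, n = 3), and these 4 groups overlapped. Since Mt2 was chosen for its rises, the ratio is a description, and no share over other gene pairs was computed. Mt2 rests on the fewest reads where it is low, 31 to 75 per library in B220+2NBDG-, against 287 to 1082 in BMPC. Over all 15 libraries Mt1 rested on 297 to 6057 reads.

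Most Mt1 came from its transcript of 549 nt, with 82.5% to 94.2% of the gene's TPM. Mt2 was split between a transcript of 388 nt (53.8% to 79.4%) and one of 511 nt. The effective length of the shorter is 139 nt, so few reads carry much TPM there. The antisense gene Gm45774 covers 73.5% of Mt2 exon bases, and use of strand in counting is not given in the sources used here. No run of 31 bases of Mt1 or Mt2 transcripts occurred in transcripts of another gene with a row in the deposited table. Gm45774 has no row there and was not searched, so this does not cover it.

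Other metallothioneins stood far lower. Mt3 rested on 1 to 25 reads per library, with 2, 6 and 1 in B220-2NBDG+, the group that enters both of its calls. The gene, best known from brain, stood at 6.66 ± 0.33 TPM for B220+2NBDG-, at 3.90 ± 1.2 for B220+2NBDG+, at 3.59 ± 1.9 for B220-2NBDG-, at 1.58 ± 1.2 for B220-2NBDG+ and at 6.09 ± 1.8 for BMPC (SD, n = 3). It was called lower with loss of B220, at -0.91 ± 0.24 on the log2 scale (limma, adjusted p = 0.0349), and higher in bone marrow, at 1.52 ± 0.35 (limma, adjusted p = 0.0405). The B220 call ended in 8 of 15 fits without 1 library, those without replicates 1 or 2 of B220+2NBDG- and B220-2NBDG-, or replicates 1 or 3 of B220+2NBDG+ and B220-2NBDG+ (highest adjusted p = 0.097, limma). It also ended with no filter (adjusted p = 0.0602), under median-of-ratios scaling (0.0648) and with the most abundant transcript alone (0.0747), all by limma. The bone marrow call likewise ended in 8 of 15, those without replicates 1 or 2 of B220+2NBDG- and BMPC, replicates 1 or 3 of B220-2NBDG+, B220-2NBDG- replicate 2 or B220+2NBDG+ replicate 1 (highest 0.148). It also ended on deposited TPM (adjusted p = 0.161), with the replicate block (0.0505), with no filter (0.0794), with only the groups compared (0.162) and with the most abundant transcript alone (0.0836), all by limma. Deposited Mt3 means were 0.058 TPM for B220-2NBDG+ and 0.281 for BMPC, so adding 1 before the log shrinks that difference, to 0.27. The B220 call was kept on deposited TPM (-0.27, limma adjusted p = 0.000968), where 59.5% of all tested genes were called lower. Both Mt3 calls thus rest on few reads and ended under several settings. Mt4 did not reach the level for testing.

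The zinc sensor and the transporters did not follow the metallothioneins. Mtf1 (chr4:124802104-124849800) stood at 10.5, 10.8 and 9.4 TPM for B220+2NBDG-, at 7.9, 12.7 and 12.7 for B220+2NBDG+, at 14, 9.4 and 12.8 for B220-2NBDG-, at 11.3, 10.1 and 7.2 for B220-2NBDG+, and at 9.9, 12 and 10.8 for BMPC. All 5 groups overlapped one another. Its differences were -0.12 ± 0.15 for 2NBDG (limma, adjusted p = 0.735; 95% interval -0.41 to 0.18), 0.01 ± 0.15 for B220 (0.99) and 0.20 ± 0.21 for bone marrow (0.672). Between 86.9% and 95.6% of its TPM came from a transcript of 636 nt, and the forms of 7631 and 7554 nt held most of the rest. The short form has an effective length of 387 nt and held an estimated 514 reads over all libraries. The long forms held 461 and 492, so the Mtf1 level rests largely on few reads of the short form. Mtf1 shares 3.3% of its runs of 31 bases with 1110065P20Rik, a gene that overlaps it.

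**Figure D3:**
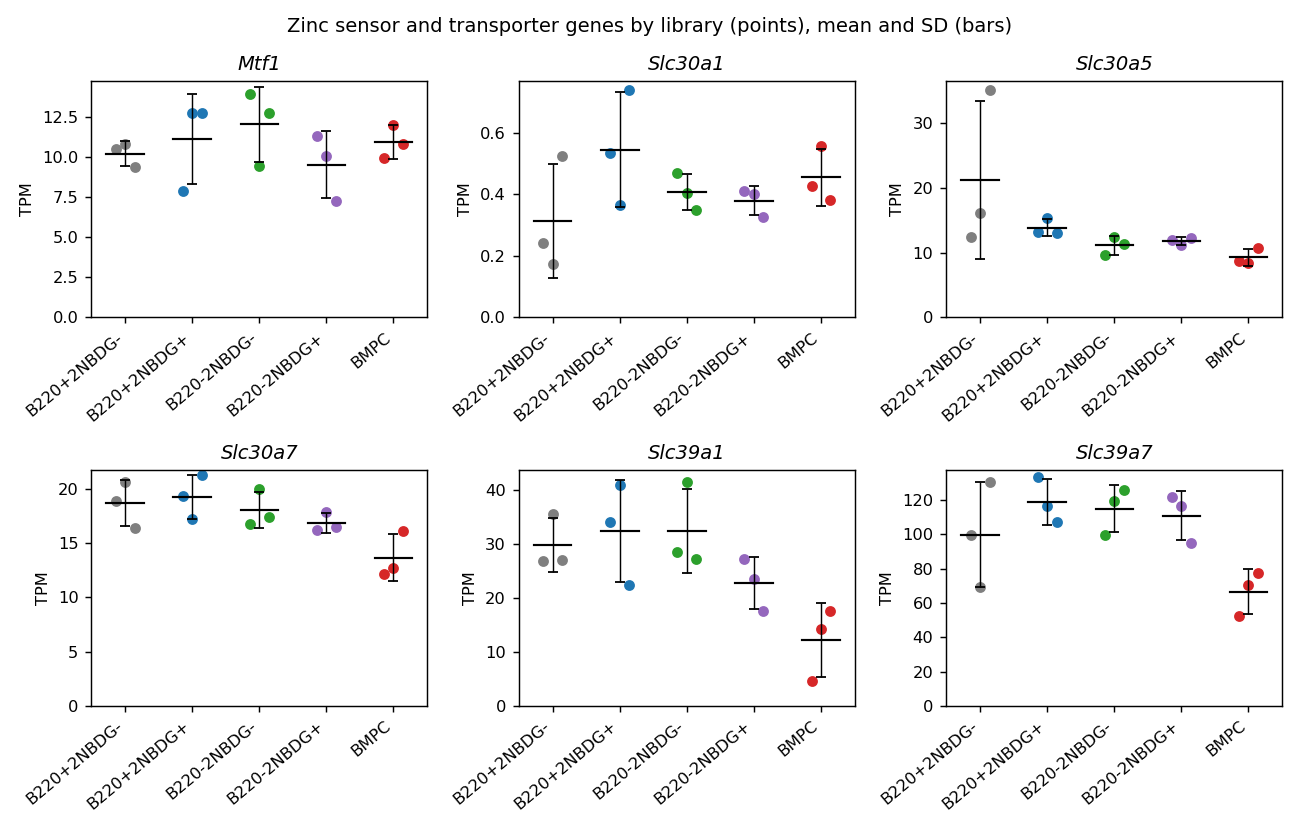
TPM outside immunoglobulin genes (y axes from 0, a separate scale for each gene) of Mtf1, 3 ZnT exporters and 2 ZIP importers in each library (points) of the 5 groups (x axis), with mean and SD (black). Slc39a7 is the most expressed of the 6 (52.3 to 133 TPM) and lowest in BMPC, and Slc30a1 stays under 1 TPM.

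Among the exporters, Slc30a1 (chr1:191906767-191913247), which pumps zinc out of the cell, had too low a level to be tested. Its values ran from 0.17 to 0.74 TPM over the 15 libraries, on 11 to 28 reads each. Group means lay between 0.31 ± 0.19 for B220+2NBDG- and 0.55 ± 0.19 for B220+2NBDG+ (SD, n = 3) and the groups overlapped.

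Slc30a5 (chr13:100802648-100833427), which with ZnT6 loads zinc into secretory compartments, stood at 12.4, 16.1 and 35.2 TPM in B220+2NBDG-. In the other groups it lay between 8.3 and 15.3 TPM. The highest value thus came from replicate 3 of B220+2NBDG-, the library that stands apart from its replicates. No difference passed: -0.18 ± 0.20 for 2NBDG (limma, adjusted p = 0.662), -0.48 ± 0.20 for B220 (0.156) and -0.33 ± 0.28 for bone marrow (0.586). Without that library the 2NBDG difference was 0.03. Of its TPM, 74.8% to 88.4% was assigned to a transcript of 2022 nt annotated as a target of nonsense-mediated decay.

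Slc30a7 (chr3:115938973-116007406), which supplies zinc to the early secretory pathway, ranged from 16.2 to 21.2 TPM over the 12 spleen libraries and stood at 12.2, 12.7 and 16.1 in BMPC, just below all 3 libraries of B220-2NBDG+ (16.2, 17.8 and 16.5). The bone marrow difference of -0.29 ± 0.15 did not pass (limma, adjusted p = 0.351), and 19.1% of all tested genes lay likewise wholly lower in bone marrow. For 2NBDG it was -0.02 ± 0.11 (limma, adjusted p = 0.938; 95% interval -0.23 to 0.18) and for B220 -0.11 ± 0.11 (0.561).

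Both importers were lower in bone marrow without passing the test. Slc39a7 (chr17:34028269-34031682), which releases zinc from the endoplasmic reticulum and the Golgi, stood at 52.3, 70.2 and 77.3 TPM in BMPC and at 121, 116 and 94.8 in spleen B220-2NBDG+. The difference was -0.74 ± 0.21 (limma, adjusted p = 0.0987; 95% interval -1.15 to -0.32). The libraries did not overlap, and 19.1% of all tested genes lay likewise wholly lower in bone marrow. Of the fits without 1 library, the difference passed only without B220+2NBDG- replicate 3 (-0.74, limma adjusted p = 0.0458). The highest adjusted p elsewhere was 0.322 (limma). The difference was -0.51 under median-of-ratios scaling (limma, adjusted p = 0.282) and -0.35 on deposited TPM (0.863). It also missed the threshold with only the groups compared (limma, adjusted p = 0.153). In the remaining spleen groups Slc39a7 lay between 69.4 and 133 TPM, and neither 2NBDG (0.12 ± 0.15, limma adjusted p = 0.719) nor B220 (0.07 ± 0.15, 0.825) made a difference that passed. The read-through gene Gm20427 on the same strand holds 80.7% of its exon bases and has no row in the deposited table.

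Slc39a1 (chr3:90248172-90253612), an importer of the plasma membrane, stood at 4.6, 14.3 and 17.6 TPM in BMPC and 27.2, 23.4 and 17.6 in B220-2NBDG+. The lowest spleen library and the highest bone marrow library were level, and the difference of -1.0 ± 0.38 did not pass (limma, adjusted p = 0.194). Without BMPC replicate 1 it was -0.47 (limma, adjusted p = 0.559). Values in the other spleen groups were 22.3 to 41.4 TPM. For 2NBDG and B220 the differences were -0.20 ± 0.27 and -0.18 ± 0.27 (limma, adjusted p = 0.743 and 0.726).

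On the deposited scale Mtf1, Slc30a5, Slc30a7, Slc39a1 and Slc39a7, 5 of the 6 tested genes other than Mt2, were called lower with 2NBDG and also with loss of B220, the largest for 2NBDG being Slc39a1 at -0.53 (limma, adjusted p = 0.00179). So were 73.4% of all tested genes with 2NBDG and 59.5% with loss of B220, and the median of all genes for 2NBDG moved from -0.04 to -0.21. These 5 genes thus shared the direction of most genes on that scale, while the values of Mt1 and Mt2 stayed above 0.

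**Figure D4:**
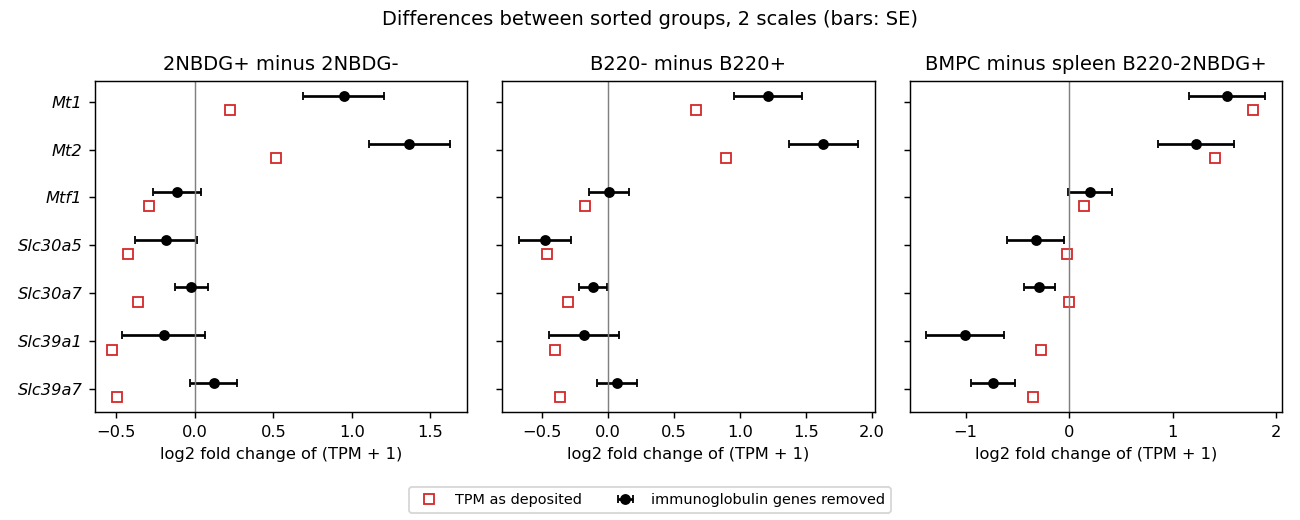
Differences on the log2(TPM + 1) scale (x axes) of 7 genes for 2NBDG uptake, loss of B220 and bone marrow, with immunoglobulin genes removed (black circles, bars are SE) and as deposited (red squares). Mt1 and Mt2 lie to the right of 0 in all 3 panels on both scales, while the 5 other genes lie at or below 0.20, and Slc39a7 changes side between the scales for 2NBDG and B220.

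The other zinc transporters are read beside the shares of all tested genes called, 6.46% for 2NBDG, 8.65% for B220 and 1.92% for bone marrow. Of 7 other ZnT genes 2 were tested and neither was called, a count too small to differ from these shares, with Slc30a6, the partner of ZnT5, at group means of 16.7 to 21.5 TPM and Slc30a9 at 1.98 to 3.50. Of 12 other ZIP genes 7 were tested, with median differences of 0.10 for 2NBDG, 0.14 for B220 and -0.51 for bone marrow, against -0.04, -0.09 and -0.18 over all tested genes. Of the 7, none was called for 2NBDG, 1 higher for B220 and 1 lower for bone marrow. In single strata 1 was called higher for 2NBDG in B220+ cells (2.2% of all genes called) and 2 for B220 in 2NBDG- cells (5.24%). Slc39a4, the importer known from intestinal zinc uptake, rose with loss of B220 by 0.61 ± 0.14 (limma, adjusted p = 0.0142), from 26.6 ± 5.9 to 45.1 ± 8.6 TPM in 2NBDG- cells and from 40.8 ± 7.3 to 56.6 ± 9.0 in 2NBDG+ cells (SD, n = 3). It was also called within 2NBDG- cells (0.75 ± 0.19, limma adjusted p = 0.0403), a call that ended in 7 of 15 fits without 1 library, those without replicate 2 or 3 of B220+2NBDG-, replicate 1 or 2 of B220-2NBDG-, B220+2NBDG+ replicate 3, B220-2NBDG+ replicate 2 or BMPC replicate 2 (highest adjusted p = 0.188, limma). The averaged call was kept in all 15. On the deposited scale both differences were 0.08 (limma, adjusted p = 0.498 for the average and 0.661 in 2NBDG- cells).

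Slc39a13, an importer of the early secretory pathway, stood at 17.9 ± 3.5 TPM for B220+2NBDG-, at 28.5 ± 1.5 for B220+2NBDG+, at 29.0 ± 2.4 for B220-2NBDG-, at 20.8 ± 1.4 for B220-2NBDG+ and at 12.2 ± 0.99 for BMPC (SD, n = 3). It was thus highest in the 2 middle groups of the metallothionein order and lowest in bone marrow. It was called higher with 2NBDG in B220+ cells (0.66 ± 0.15, limma adjusted p = 0.0343) and with loss of B220 in 2NBDG- cells (0.68 ± 0.15, 0.0158), and lower in bone marrow (-0.73 ± 0.15, 0.0227). The 2NBDG call was kept in 6 of 15 fits without 1 library, those without B220+2NBDG- replicate 3, replicate 1 or 3 of B220-2NBDG- and BMPC, or B220-2NBDG+ replicate 1 (highest adjusted p elsewhere 0.122, limma), and the difference was -0.10 on deposited TPM (limma, adjusted p = 0.317). The B220 call ended without replicate 1 or 2 of B220+2NBDG- and replicate 1 or 3 of B220-2NBDG- (highest adjusted p = 0.0697, limma), and on deposited TPM (0.04, 0.735). Both also ended with only the groups compared (limma, adjusted p = 0.241 and 0.145), and the former with the most abundant transcript alone (0.121). The bone marrow call ended without any 1 B220-2NBDG+ library and without BMPC replicate 1 or 2 (highest adjusted p = 0.109, limma). It also ended on deposited TPM (-0.19, limma adjusted p = 0.762), under median-of-ratios scaling (-0.51, 0.13), with only the groups compared (0.102) and with its most abundant transcript alone (-0.02, 0.987).

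For genes that share regulators with metallothioneins, counts of calls lay near the shares of all tested genes (6.46% for 2NBDG, 8.65% for B220 and 1.92% for bone marrow) and set none of these lists apart. None of the 4 other MTF1 targets was called in the averaged 2NBDG, averaged B220 or bone marrow comparison. Selenow, a selenoprotein, had group means of 1142 to 1490 TPM and Csrp1 of 15.2 to 21.2 TPM. None of 7 tested glucocorticoid response genes was called in these comparisons, including the zinc finger mRNA decay factor Zfp36 (group means of 139 to 237 TPM) and Tsc22d3 (147 to 206 TPM). Of 8 tested NRF2 targets, which answer oxidative stress, 1 was called: Prdx1, a peroxidase, fell with loss of B220 by 0.37 ± 0.09 (limma, adjusted p = 0.0243). The Prdx1 call ended without B220-2NBDG- replicate 1, B220+2NBDG+ replicate 2 or 3, or B220-2NBDG+ replicate 1 (adjusted p = 0.0574 to 0.0714, limma). It also ended under median-of-ratios scaling (0.273), without the trend (0.0539) and with the most abundant transcript alone (0.216), all limma values.

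Of 8 tested copper genes and 10 tested iron genes 1 each was called, both higher for 2NBDG, beside 2.02% of all tested genes called higher, so the 2 calls set neither list apart. Fth1, the ferritin heavy chain, rose by 0.73 ± 0.16 (limma, adjusted p = 0.0146), from 954 ± 183 to 1918 ± 452 TPM in B220+ cells and from 1343 ± 269 to 1822 ± 121 in B220- cells (SD, n = 3). Slc31a2, a copper transporter, rose by 0.52 ± 0.14 (limma, adjusted p = 0.0473). On the deposited scale these were 0.02 and -0.09. The Slc31a2 call was kept in 5 of 15 fits without 1 library: those without B220+2NBDG- replicate 3, B220-2NBDG- replicate 1, B220-2NBDG+ replicate 2, or BMPC replicate 1 or 3 (highest adjusted p elsewhere 0.125, limma). It also ended with no filter (0.0602), with only the groups compared (0.0502) and without the trend (0.0519).

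Genes whose pattern over the 15 libraries was most like that of Mt2 were looked for among 5069 genes with a mean of at least 10 TPM, by Pearson r of log2(TPM + 1). The 6 nearest were Ndufv3, a subunit of respiratory complex I (r = 0.957), Cldn7 (0.953), Tmem205 (0.952), Jchain (0.949), Cd59a (0.929) and Tmem176b (0.928). Jchain, which joins IgM and IgA subunits, had group means of 27113, 51153, 55012, 80538 and 101834 TPM from B220+2NBDG- to BMPC, in the order used above for Mt2. Cldn7, a tight junction protein, went from 3.28 ± 1.8 TPM in the first to 118 ± 63 in the last (SD, n = 3). Nearest to Mt1 were Ndufv3 (0.938), Ly6c2 (0.914) and Cldn7 (0.908), while Mt1 and Mt2 themselves had r = 0.98. Once group means were removed, Mt1 and Mt2 had r = 0.914. For the genes nearest to Mt2 it was then 0.676 for Ndufv3, 0.497 for Cldn7, 0.718 for Tmem205, 0.453 for Jchain, 0.493 for Cd59a and 0.211 for Tmem176b, all lower than over the libraries as they stand. For those nearest to Mt1 it was 0.503 for Ndufv3, 0.598 for Ly6c2 and 0.327 for Cldn7. These points share libraries and depth, and the values are a description.

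Markers of other cells moved with some of the same groups. Summed over 8 neutrophil genes, levels were 11.6 to 419 TPM over the spleen libraries and 5506 to 9312 in BMPC, where 7 of the 8 were called higher beside 1.03% of all tested genes, among them Ltf at 2750 ± 760 TPM and S100a8 at 1571 ± 367 (SD, n = 3). In spleen 1 of the 8, Mpo, was called higher with loss of B220 averaged over 2NBDG (1.58 ± 0.44, limma adjusted p = 0.0405). Beside it, 2.8% of all tested genes were called higher. Mpo means were 1.21 TPM for B220+2NBDG-, 0.47 for B220+2NBDG+, 4.19 for B220-2NBDG- and 5.68 for B220-2NBDG+. Ly6g, a neutrophil marker that the sort selected against, stood at 10.1 ± 5.2 TPM in BMPC and at group means of 0.74 to 2.62 in spleen, while Itgax, which encodes CD11c, stood at 0.50 to 1.32. BMPC replicate 3 had the highest neutrophil sum of the 3 and the lowest Mt1 and Mt2. None of the markers was at 0 in all libraries of a group. Their part in the bone marrow or spleen values was not tested.

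The summed T cell markers stood at 102 to 486 TPM for B220+2NBDG- and at 75.2 to 145 for B220-2NBDG-, against 67.5 to 82.2 and 27.3 to 59.8 in the matching 2NBDG+ groups, so the sums of the matching groups did not overlap. Of 6 tested T cell genes 3, Trac, Cd3e and Cd3g, were called lower in the averaged 2NBDG comparison, beside 4.44% of all tested genes, and none in either stratum alone. Cd4 went the other way in B220+ cells, from a mean of 1.56 to 3.64 TPM, and was called higher in bone marrow (13.1 TPM; limma, adjusted p = 0.0496), a call kept in 3 of 15 fits without 1 library, those without replicate 3 of B220+2NBDG-, of B220+2NBDG+ or of B220-2NBDG+ (highest adjusted p elsewhere 0.192, limma). Summed macrophage markers, among them Slc40a1 and Hmox1, were 170 to 621 TPM for B220+2NBDG- and 636 to 3236 for B220+2NBDG+. They were 258 to 1104 TPM for B220-2NBDG- against 366 to 1528 for B220-2NBDG+, and 684 to 1123 for BMPC. None of the 11 was called in the averaged 2NBDG, averaged B220 or bone marrow comparison (limma). Erythroid sums spanned 34.9 to 3594 TPM, highest in replicate 3 of every spleen group, and stromal sums 12.4 to 51.4. Of the 6 plasma cell markers Jchain and Tnfrsf17 were called higher with 2NBDG and with loss of B220 (2.02% and 2.8% of all tested genes). These 2 transcripts thus moved in the same direction as the metallothioneins in spleen. Sdc1, Prdm1, Xbp1 and Irf4 were called in neither averaged comparison. In bone marrow none of the 6 was called, with a median difference of -0.195 against -0.177 over all tested genes. Tnfrsf17 stood there at a mean of 314 TPM, against 335 in spleen B220-2NBDG+. The part of any of these cells in the metallothionein values was not tested.

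**Figure D5:**
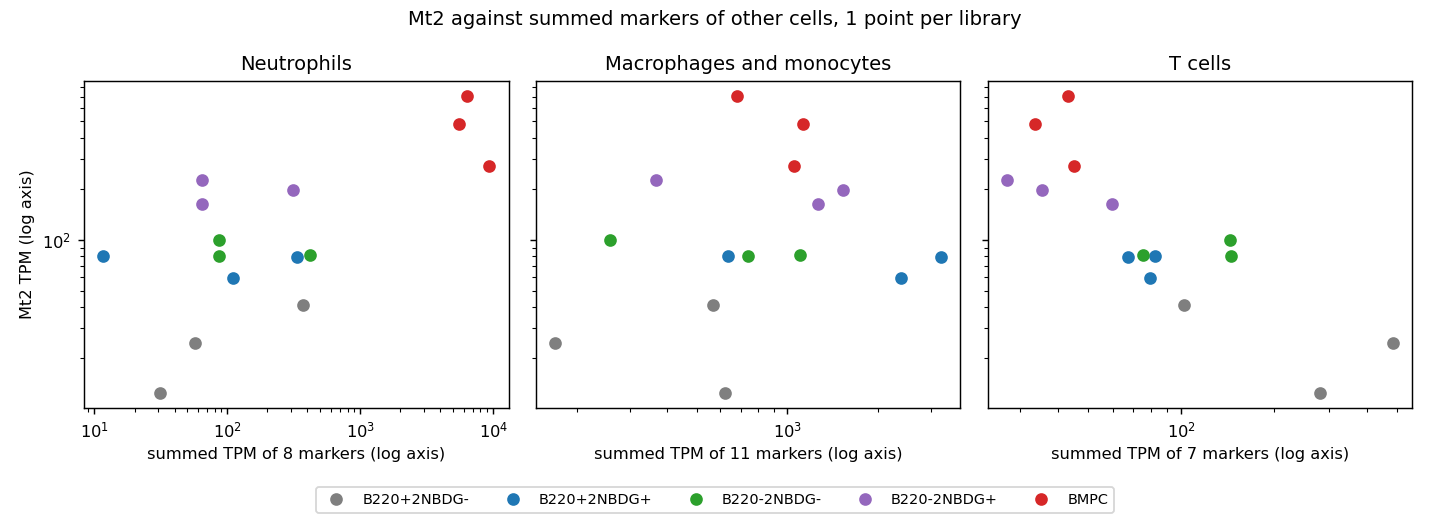
Mt2 TPM (y axis, log scale) against the summed TPM of neutrophil, macrophage and T cell markers (x axes, log scale), 1 point per library, coloured by group. The 3 BMPC libraries lie apart at 5506 to 9312 TPM of neutrophil markers, and the neutrophil sums of the spleen groups overlap.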

How the data were processed

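RNA of plasma cells was isolated with a NucleoSpin XS kit and made into libraries with Clontech Smartseq and Nextera kits, per the labels' protocols. The deposited values are TPM per transcript, made by the authors with Salmon 0.9.1 on GRCm38.p6, per the submitters' processing notes. Lengths and effective lengths of transcripts were deposited beside them and belong to no sample. The deposited table assigns its 63553 transcripts to 22339 genes. GENCODE M21, which holds 99.7% of these transcripts, gave gene types and positions.

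After TPM had been added up per gene, the 262 immunoglobulin locus genes were left out and the rest rescaled to 1000000 per library. The 11246 genes reaching 1 TPM in 3 or more libraries were tested on log2(TPM + 1) with limma 3.58.1 in R 4.3.3: 1 model of the 5 group means over 15 libraries, eBayes with trend, Benjamini-Hochberg adjusted p under 0.05 over all tested genes in each of 8 comparisons. The method was tested on simulated data. P-values set a difference against the spread between the 3 biological replicates of a group, pooled over all 5 groups and adjusted by eBayes with the help of other genes. Libraries outside a comparison therefore enter its p-value, and possible pairing by replicate number is left out of the main fit. Reads were estimated from TPM times effective length, which came out within 0.05 of a whole number for 72.1% to 74.7% of low values of single-transcript genes in a library, so read numbers are approximate and no count test was run.

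Named genes were all 8 members, the most changed called genes of each fixed list (up to 3, or the 2 of highest TPM where none was called), the 6 genes most like Mt2 and 3 most like Mt1, the sort markers, and the 2 most expressed of each marker list. Tnfrsf17, named among the plasma cell markers, and Mpo, named among the neutrophil markers, were chosen after their values were seen. The members, lists and tests were chosen with earlier results of these data known. Promoter windows are RefSeq's (GRCm38.p6), matched by symbol for all 8 members. Alternatives changed the pseudocount, the filter, the scaling, the block, the groups fitted, the trend, the transcripts used and the libraries kept.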

Additional observations from a re-analysis of the deposited data

How the results depend on the processing

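Mt2 was chosen for its rises in the 2NBDG, B220 and bone marrow comparisons, so its refits are a description and no support for them. It kept its direction there under all 9 alternatives and without any 1 library. Its differences ranged over 1.15 to 1.56, 1.41 to 1.82 and 0.90 to 1.59 when 1 library was left out. On deposited TPM they were 0.52, 0.89 and 1.41. The averaged 2NBDG call of Mt1 ended with no filter (adjusted p = 0.0746), on deposited TPM (0.471), under median-of-ratios scaling (0.0697), without the trend (0.0545) and with the most abundant transcript alone (0.0795). Its B220 call ended on deposited TPM (0.0533), and its bone marrow difference passed with a minimum of 5 TPM (0.0498). That difference missed with no filter (0.0958), on deposited TPM (0.0594) and under median-of-ratios scaling (0.0538). It also missed with only the groups compared (0.163), without the trend (0.065) and with the most abundant transcript alone (0.0675). All these are limma values. Signs turned on deposited TPM for Mtf1 with B220 (-0.17), Slc39a7 with 2NBDG (-0.50) and B220 (-0.37), the Mt1 interaction (0.19), Slc31a2 with 2NBDG (-0.089) and Slc39a13 with 2NBDG in B220+ cells (-0.099), and under median-of-ratios scaling for Slc30a7 with 2NBDG (0.013). Leaving out 1 library turned Mtf1 with B220 (-0.10 to 0.09), Slc30a5 with 2NBDG (-0.334 to 0.026), Slc30a7 with 2NBDG (-0.066 to 0.013), Slc39a7 with B220 (-0.048 to 0.176) and the Mt1 interaction (-0.39 to 0.26), none of which was called.

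Counts of called genes moved with the settings, and the cause was not tested. On deposited TPM they were 8286 for 2NBDG averaged (726 on the main scale), 7427 in B220+ (247), 2632 in B220- (314), 6861 for B220 averaged (973), 6415 in 2NBDG- cells (589), 80 for the interaction (3) and 100 for bone marrow (216). With no filter they were 141 for 2NBDG in B220+, 764 in B220-, 1046 for B220 in 2NBDG- cells and 26 for the interaction. A minimum of 5 TPM gave 170 for 2NBDG in B220- and 0 for the interaction, as did a pseudocount of 0.1 (0). With only the groups compared, which leaves fewer samples, counts were 5 for 2NBDG in B220+, 159 in B220-, 118 for B220 in 2NBDG- cells, 38 in 2NBDG+ cells and 53 for bone marrow. Leaving out 1 library gave 458 to 1163 for 2NBDG averaged, 29 to 376 in B220+ and 125 to 384 in B220-, 569 to 1339 for B220 averaged, 229 to 682 in 2NBDG- and 56 to 221 in 2NBDG+ cells, 1 to 4 for the interaction and 88 to 402 for bone marrow. Median-of-ratios scaling changed the split of higher against lower calls from 315 and 658 to 552 and 461 for B220, and from 116 and 100 to 183 and 34 for bone marrow.

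Replicate numbers are not stated to pair the samples. Of 18 same-number pairs of spleen libraries 16 had deviations correlated above 0.1 (range 0.089 to 0.415), pairs with BMPC had r of -0.191 to 0.059, and all 12 spleen libraries correlated best on average with their own number, a hint from the data only. With the number as a replicate block the counts were 485 for 2NBDG in B220+, 228 for B220 in 2NBDG+ cells and 335 for bone marrow, and Mt1 in bone marrow had adjusted p = 0.0416 (limma). Depth limits Slc30a1 and Mt3, with at most 28 and 25 reads in a library.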

Other observations

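Replicate 2 had the lowest Mt1 value in each of the 4 spleen groups. Those values were 72.5 TPM for B220+2NBDG-, then 204 for B220+2NBDG+, 228 for B220-2NBDG- and 410 for B220-2NBDG+. The same libraries were lowest for Mt2 in all 4 groups, at 12.5, 59.6, 80.7 and 163 TPM. BMPC replicate 2, by contrast, was the highest bone marrow library for both genes, at 2179 and 708 TPM.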
